A study of Mus musculus and Meriones unguiculatus with 4 samples.

Results

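The 47 genes described here encode proteins of mitosis and the spindle, from the kinases that start cell division to the proteins that part the daughter cells. They were chosen by name and not by a cut on their values, though with earlier results of these data known. Of the 47, 41 had a symbol that occurred once in both the mouse and the gerbil expression table. These 41 belong to 13325 genes matched between the tables, and all 41 were among the 10162 genes that passed the filter on low levels. The other 6 (Ccnb2, Incenp, Kif20b, Kif15, Kif22 and Prc1) were found in the mouse table, and gerbil values for them are not analysed here.

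RNA was sequenced from the enamel knot of tooth germs of the lower jaw, a region cut by laser from frozen sections of germs fixed in paraformaldehyde. The mouse group was wild type (WT) at embryonic day 13 and the gerbil group, Meriones unguiculatus, was wild type at embryonic day 15, with 2 libraries per species. The labels give the cells as epithelial. Species and embryonic day change together, so they cannot be told apart in any difference between the groups. The libraries carry the names PEK and SEK in mouse and E21 and E23 in gerbil, which the labels do not explain. If E21 and E23 stand for embryonic days, they go against the day 15 of the labels, so the age of the gerbil samples is given here only as labelled. Nor do the labels say how many embryos a library holds or whether the libraries of a species are of separate embryos, so the spread between them may be technical, or may include a stage or region that the names stand for.

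The enamel knot is a small group of dental epithelial cells that sends growth signals to its neighbours. Its own cells leave the cell cycle while the epithelium around it goes on dividing. In a dividing cell, the kinase Cdk1 and its cyclins start mitosis, condensin compacts the chromosomes, and kinetochores attach them to spindle microtubules. The spindle checkpoint then holds back the anaphase-promoting complex until every chromosome is attached, after which sister chromatids part and an actomyosin ring divides the cell. Most of these genes are transcribed late in the cell cycle, so RNA of a dissected region reports both how many cells divide and how much RNA each dividing cell holds. In bulk samples such as these, fewer dividing cells and less RNA per dividing cell cannot be told apart.

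Many late cell cycle genes carry 2 short promoter elements: the CHR (cell cycle genes homology region, TTTGAA, bound by complexes that share the MuvB core) and the CCAAT box (bound by NF-Y). Both were searched on both strands, as TTTGAA or TTCAAA and as CCAAT or ATTGG, in the 250 bases before each start in RefSeq's mouse promoters (GRCm38.p6). Copies of the 2 elements can share at most 1 base. Of the 41 measured members, 34 had a promoter entry. The CHR letters were present for 12 (35.3%), the CCAAT letters for 25 (73.5%) and both for 11 (32.4%). Over the 8050 measured genes with an entry these shares were 12.5%, 39.7% and 5.55%, and over all 27025 genes with an entry 18.3%, 37.5% and 7.34%. For Aurka, Kif2c and Mad2l1, the bases after the start did not match a transcript of the gene, and they are counted all the same. Kif2c is among the 12 members with the CHR letters and Aurka among the 25 with the CCAAT letters. The 6 measured members with both elements in the last 100 bases are shown first, as examples of the 2 elements side by side, and Anln, the member with the largest corrected difference toward gerbil, is shown as a promoter with neither. Each sequence reads 5′ to 3′ toward the start, and capitals mark the 2 elements. The stretches are chr10:69352913-69353012 on the minus strand for Cdk1, chr4:118437344-118437443 on the minus strand for Cdc20, chr2:164769829-164769928 on the plus strand for Ube2c and chr15:102296193-102296292 on the plus strand for Espl1. They are chr19:37376282-37376381 on the plus strand for Kif11, chr11:99024190-99024289 on the minus strand for Top2a and chr9:22389207-22389306 on the minus strand for Anln.
Cdk1: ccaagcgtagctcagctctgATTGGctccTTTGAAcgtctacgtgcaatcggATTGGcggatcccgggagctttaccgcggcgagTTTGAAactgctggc
Cdc20: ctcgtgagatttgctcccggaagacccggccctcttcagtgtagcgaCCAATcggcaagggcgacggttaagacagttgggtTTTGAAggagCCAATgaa
Ube2c: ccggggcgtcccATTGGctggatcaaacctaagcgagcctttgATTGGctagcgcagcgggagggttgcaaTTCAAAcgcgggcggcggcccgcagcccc
Espl1: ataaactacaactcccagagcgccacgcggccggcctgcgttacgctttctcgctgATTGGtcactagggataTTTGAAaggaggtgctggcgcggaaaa
Kif11: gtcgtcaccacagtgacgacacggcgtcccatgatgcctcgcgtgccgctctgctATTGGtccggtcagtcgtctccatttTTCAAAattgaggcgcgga
Top2a: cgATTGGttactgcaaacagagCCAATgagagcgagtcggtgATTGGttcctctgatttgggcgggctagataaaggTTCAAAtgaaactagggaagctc
Anln: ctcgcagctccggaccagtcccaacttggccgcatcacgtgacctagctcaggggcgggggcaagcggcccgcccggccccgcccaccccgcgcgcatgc

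In the 6 promoters with both, the CHR copy nearest the start began between 15 bases (Cdk1) and 29 bases (Ube2c) before it. The CHR letters did not sort by species: 4 of the 7 members called higher in gerbil and 2 of the 6 called higher in mouse held them, and the CCAAT letters were held by 5 of 7 and 4 of 6. A match describes letters in a mouse sequence and is not a measured binding site.

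Expression is given as a level, the deposited value per unit of transcript length rescaled so that the 13325 matched genes of a library sum to 1000000. Differences between libraries are on the log2(level + 1) scale, after removal of a trend with transcript length, and gerbil minus mouse unless said otherwise. Differences given as uncorrected, or without the length correction, instead had a median over all genes subtracted from each library. They need not equal the differences of the printed levels. A call of higher in mouse or in gerbil means that each library of that species lay at least 2-fold above each library of the other on the corrected scale. The authors normalized the mouse and gerbil tables apart, so the differences carry no significance test. An exact two-sided permutation test of 2 libraries against 2 would have reached 0.333 at best. Read depth was not analysed here, so no interval or detection limit that needs it is given.

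The markers of the labelled tissue were present. All 8 enamel knot markers (Shh, Fgf4, Cdkn1a, Dkk4, Wnt10b, Slit1, Bmp2 and Bmp7) and all 7 epithelial markers were above 0 in every library. The knot markers summed to 3314 and 1959 in PEK and SEK and to 1477 in each gerbil library. Shh made up most of the gerbil sums, at 963 and 1186, against 946 and 609 in mouse. Cdkn1a was at 1565 and 1019 in mouse and at 60.0 and 37.1 in gerbil. The equal gerbil sums hid opposite moves: Shh was higher in E23 than in E21, while every other knot marker was lower. Summed epithelial levels were 5339 in PEK, 7632 in SEK, 8951 in E21 and 7855 in E23. The 9 mesenchymal markers summed to 687 and 744 in mouse and to 1916 and 3477 in gerbil. Not all of them followed the sum: Twist1 was at 183 and 84.6 in mouse and at 31.6 and 22.6 in gerbil, and Prrx1 overlapped, at 28.3 and 4.06 against 15.2 and 25.4. The 5 matched markers of blood and immune cells summed to at most 38.8 in any library, and the 6 of muscle to 135 and 587 in mouse and to 29.5 and 52.4 in gerbil, with Myod1 listed at 0 in both gerbil libraries. The 5 matched endothelial markers summed to 111 and 202 in mouse and to 34.8 and 157 in gerbil. Egfl7 made up most of the mouse sums, at 106 and 189, against 33.7 and 53.4 in gerbil. Pecam1, Cdh5, Kdr and Emcn were highest in E23, at 18.4 to 32.3. They were at most 4.70 in mouse and at most 0.528 in E21. The part of these other cells in the species differences below was not tested.

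Mitosis genes differed between mouse and gerbil in both directions. Called higher in gerbil were 7 of the 41 (17.1%), against 13.3% of all measured genes: Ndc80, Kif11, Kif23, Ncapg, Mki67, Anln and Ect2. Called higher in mouse were 6 (14.6%), against 14.7% of all measured genes: Birc5, Cdca8, Ube2c, Pttg1, Cenpa and Smc2. The other 28 met neither criterion, and both shares are near those of all genes. The roles below hold at most 7 measured genes each, so few or no calls in a role are not read as a result about it. Of the 41 differences, 25 were above 0 and 16 below, while 5027 of all 10162 genes were above 0. The median difference of the 41 was 0.73, against -0.02 for all genes. It was 0.31 without PEK, 0.39 with GC content also removed, 0.43 with the median transcript length in place of the exon union and 0.48 without the length correction. With neither correction nor rescaling it was -0.72, where the median of all genes was -1.09. The mouse SEK library weighed on these counts: without it 16 members were called higher in gerbil (17.6% of all genes), and without PEK 10 were called higher in mouse (20.5% of all genes). The 9 added without SEK were Ccna2, Ccnb1, Bub1b, Nuf2, Spc25, Kif20a, Kif4, Tpx2 and Racgap1, and the 4 added without PEK were Cdk1, Plk1, Mad2l1 and Spc24.

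The members spanned a wider range of levels, without the length correction, in mouse than in gerbil. The highest and lowest members were 69.0-fold apart in PEK and 162-fold apart in SEK, with Ube2c at the top and Anln at the bottom of both. They were 12.6-fold apart in E21 and 16.4-fold in E23, with Mki67 at the top and Cdca8 at the bottom of both. After the correction, on the log2 scale, Ube2c (8.02) was just above Mki67 (7.99) in E21, Spc25 (7.80) was the highest in E23, and Espl1 was the lowest in both (4.90 and 4.08). The 5 highest members made up 49.1% and 55.2% of the members' summed level in mouse and 26.5% and 26.7% in gerbil. By level, Mki67 ranked 28 and 35 among the 41 in mouse and 1 in both gerbil libraries, while Cenpa ranked 3 and 2 in mouse and 40 and 35 in gerbil.

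**Figure D1:**
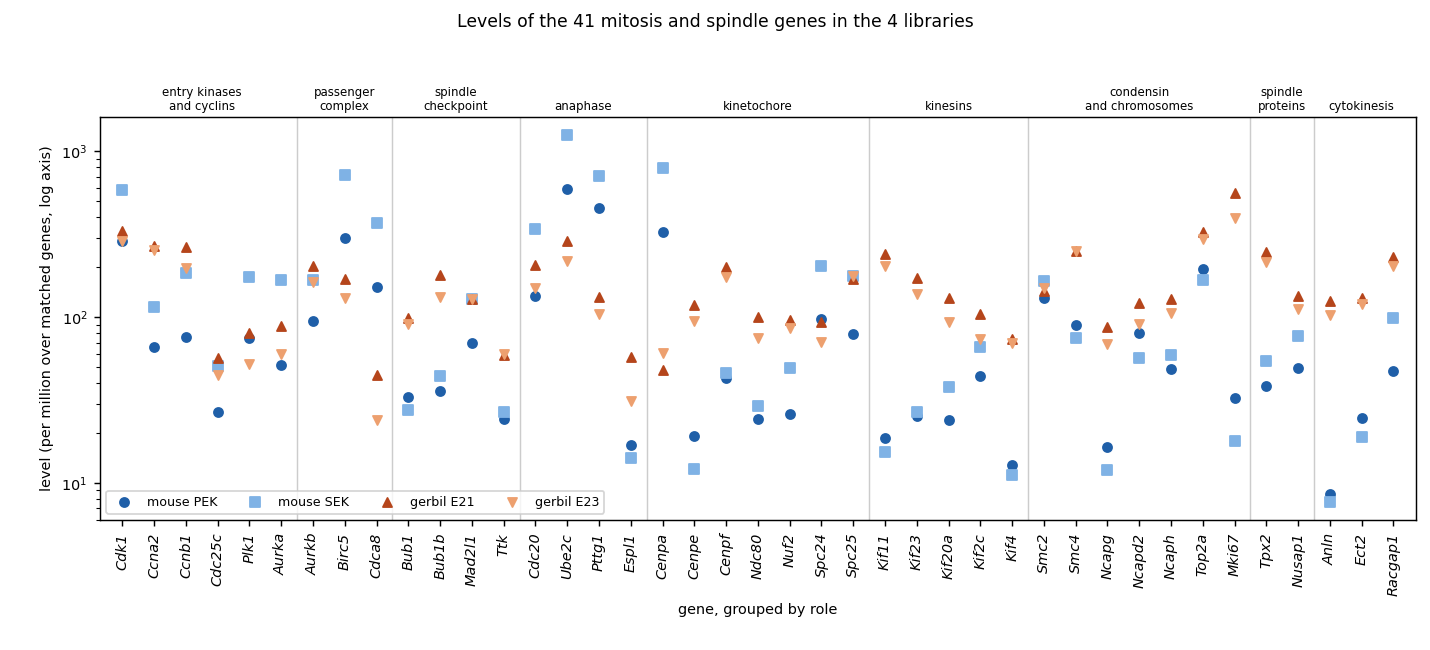
Level of each of the 41 members (vertical axis, rescaled to 1000000 over matched genes, log axis, not length-corrected) in the 4 libraries, with genes grouped by role along the horizontal axis. Each point is 1 library. Kinesin and cytokinesis genes lie higher in the gerbil libraries, while Cenpa, Cdca8 and Pttg1 lie higher in the mouse libraries.

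No kinase or cyclin of mitotic entry was called different between the species, against 13.3% of all genes called higher in gerbil and 14.7% in mouse. Of the 6 measured, 3 had a difference above 0 and 3 below, with a median of 0.32. Cdk1, the kinase that starts mitosis, was the most abundant of them, at 286 in PEK, 586 in SEK, 331 in E21 and 288 in E23. By level, both gerbil libraries lay between the mouse libraries, close to PEK. After the length correction both gerbil libraries lay below both mouse libraries, the nearest by less than 2-fold. The corrected difference of Cdk1 was -1.58 ± 0.78 (SE, n = 2 each), and it was called higher in mouse without PEK (-2.35). Cdc25c, the phosphatase that activates Cdk1, was the least abundant, at 26.9 and 50.8 in PEK and SEK and 56.5 and 44.6 in E21 and E23. These levels overlapped between the species. After the length correction both gerbil libraries lay above both mouse libraries by less than 2-fold (0.70 ± 0.36). The cyclin genes Ccna2 (0.74 ± 0.58) and Ccnb1 (0.74 ± 0.61) and the kinase genes Plk1 (-0.79 ± 0.61) and Aurka (-0.07 ± 0.76) had large errors beside their differences. Their levels ran from 51.6 (Aurka in PEK) to 268 (Ccna2 in E21).

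The chromosomal passenger complex, which corrects faulty attachments at the centromere, differed within itself. Birc5, encoding survivin (chr11:117849251-117855759), was at 302 in PEK, 722 in SEK, 169.5 in E21 and 129.7 in E23. Both mouse libraries lay above both gerbil libraries, and the difference was -2.36 ± 0.77, a 5.13-fold corrected difference. Cdca8, encoding borealin (chr4:124918465-124939311), was at 153 and 371 in mouse and at 44.5 and 24.0 in gerbil, with a difference of -2.49 ± 0.71. By level it was the lowest member of the set in gerbil and among the 7 highest in mouse. Aurkb, the complex's kinase, was at 94.2 and 168 in mouse and 202 and 164 in gerbil, and was not called (0.79 ± 0.32). Both calls were kept under all 12 alternatives run.

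None of the 4 spindle checkpoint genes was called, against 13.3% of all genes called higher in gerbil and 14.7% in mouse. The differences of 3 were above 0. Of these, Bub1 (-0.21) and Ttk (-0.60) were below 0 with neither correction nor rescaling, where the median of all genes was -1.09. Mad2l1, which encodes the checkpoint protein Mad2, had the highest mean over the 4 libraries, at 69.7 in PEK, 129.0 in SEK, 128 in E21 and 129.1 in E23. In gerbil Bub1b was the higher, at 180.4 and 132.9. For Mad2l1, the gerbil libraries and SEK stood at nearly the same level, with PEK lower. After the length correction both gerbil libraries lay below both mouse libraries, the nearest by less than 2-fold. The difference of Mad2l1 was then -1.56 ± 0.82, against -0.20 without the correction. With the median transcript length (4641 bases) in place of the exon union (8032 bases) the difference was -1.17. Mad2l1 was called higher in mouse without PEK (-2.40) and with GC content also removed (-2.13). Ttk, the kinase that starts checkpoint signalling, was the least abundant, at 24.1 and 26.6 in mouse and 58.8 and 60.1 in gerbil. Both gerbil libraries were above both mouse libraries, but by less than 2-fold after correction (0.73 ± 0.10). The scaffold kinase gene Bub1 (0.87 ± 0.02) and Bub1b (1.09 ± 0.37) also separated the species without reaching the call. Bub1 was called higher in gerbil with no filter on low levels (1.11), and Bub1b without SEK (1.40) or without E23 (1.33).

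Of the 4 genes of anaphase, Ube2c and Pttg1 were called higher in mouse, against 14.7% of all genes. Ube2c encodes the ubiquitin-conjugating enzyme of the anaphase-promoting complex (chr2:164769898-164778822). It was the most abundant member in mouse, at 594 in PEK and 1248 in SEK, against 289 in E21 and 217 in E23. The difference was -2.07 ± 0.56, a 4.19-fold corrected difference. Pttg1 encodes securin, the inhibitor of separase that is destroyed at anaphase (chr11:43420250-43426251). Its level was 454 and 710.3 in mouse and 131 and 105 in gerbil, with no overlap and a difference of -1.74 ± 0.25. Espl1, which encodes separase itself, did not differ by the call (-0.47 ± 0.46), at 17.0 and 14.2 in mouse and 57.6 and 31.0 in gerbil. On the uncorrected levels its gerbil libraries were the higher, and its uncorrected difference was 0.76. Cdc20, the activator of the anaphase-promoting complex, ranged from 134 in PEK to 340 in SEK with both gerbil libraries between them (0.19 ± 0.61). With the median transcript length in place of the exon union, the Ube2c (-1.37) and Pttg1 (-0.87) calls both ended.

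At the kinetochore, 1 of 7 genes (14.3%) was called higher in each species, near the shares of all genes (13.3% in gerbil, 14.7% in mouse). Cenpa, the histone H3 variant that marks centromeres (chr5:30666777-30674844), had the largest difference toward mouse of all members. It stood at 326 in PEK and 792 in SEK, and at 48.1 in E21 and 60.5 in E23. Every mouse library was several times every gerbil library, the corrected difference was -2.62 ± 0.49, 6.14-fold, and the call was kept under all 12 alternatives. Ndc80, the microtubule-binding subunit of the outer kinetochore (chr17:71496100-71526857), went the other way, at 24.4 and 29.2 in mouse and 99.7 and 75.1 in gerbil (1.68 ± 0.18). No call was made without the length correction (1.03) or with GC content also removed (1.23). With neither correction nor rescaling the difference was -0.18, where the median of all genes was -1.09.

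The partners of Ndc80 in the same complex met neither criterion. Nuf2 was at 0.91 ± 0.49, Spc25 at 1.22 ± 0.38 and Spc24 at -0.76 ± 0.51, all as corrected differences. Cenpe, a kinesin of the kinetochore, was at levels of 19.3 and 12.0 in mouse and 119 and 94.1 in gerbil. Cenpf, a long kinetochore protein, was at 42.6 and 45.9 in mouse and 201 and 174 in gerbil. Both have among the longest transcripts of the set, 7910 bases for Cenpe and 11130 for Cenpf. Uncorrected they were called higher in gerbil (2.08 and 1.42), and after the correction they were not (0.75 ± 0.12 and -0.21 ± 0.48).

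Of the 5 kinesins, motors of the spindle, 2 were called higher in gerbil, against 13.3% of all genes. The differences of all 5 were above 0, as were those of 5027 of all 10162 genes. With neither correction nor rescaling, where the median of all genes was -1.09, the differences of Kif20a (-0.02) and Kif2c (-1.12) were below 0. That of Kif2c was also below 0 without PEK (-0.18) or without E21 (-0.02). Kif11, the motor that pushes the spindle poles apart (chr19:37376403-37421859), was at 18.5 in PEK and 15.2 in SEK, and at 240.0 in E21 and 202 in E23. The species were far apart, with a corrected difference of 2.20 ± 0.16 (4.61-fold), and the call was kept under all 12 alternatives. Kif23, a motor of the central spindle (chr9:61917276-61946912), was at 25.3 and 26.7 in mouse and 173 and 138 in gerbil (1.83 ± 0.19). Its call ended with median transcript lengths (1.32) and with neither correction nor rescaling (0.64). Kif4, a chromosome-bound motor and the least abundant kinesin, was at 12.9 and 11.1 in mouse and 73.9 and 70.0 in gerbil. It missed the call after correction (1.06 ± 0.19) and was called higher in gerbil without it (1.86), with no filter (1.19) and without SEK (1.24). Kif20a (0.83 ± 0.50) and the microtubule depolymerase gene Kif2c (0.18 ± 0.39) were not called.

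The genes that shape mitotic chromosomes were split. Mki67 encodes Ki-67, a protein that coats mitotic chromosomes and a standard marker of proliferation (chr7:135689782-135716397). It was at 32.3 in PEK and 17.8 in SEK and at 562 in E21 and 394 in E23. Its corrected difference was 2.00 ± 0.23, against 3.60 uncorrected, and its call was kept under all 12 alternatives. Top2a, the topoisomerase that untangles sister chromatids, was not called (-0.74 ± 0.20), at 196 and 167 in mouse and 324 and 294 in gerbil. The levels of Top2a were higher in gerbil, as was the median level of all genes. Its uncorrected difference, taken after a median over all genes was subtracted, was 0.13. It fell below 0 once the trend of genes of its length (5221 bases) was subtracted.

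Condensin subunits also differed among themselves. Ncapg (chr5:45669919-45700546) was called higher in gerbil, at 16.3 and 12.0 in mouse and 87.1 and 68.6 in gerbil (1.53 ± 0.15). Its call ended with GC content also removed (0.97), with median transcript lengths (1.12) and with neither correction nor rescaling (0.51). Smc2, an ATPase core subunit (chr4:52439243-52488260), was called higher in mouse (-1.71 ± 0.49), yet its levels were 131 and 164 in mouse and 144 and 150.5 in gerbil. Those levels overlap. Its transcript has 5404 bases, and without the length correction it was not called (-0.63). With neither correction nor rescaling it was called (-1.83), where 40.6% of all genes were called higher in mouse. The call also ended with no filter (-1.43) and with a minimum of 10 in each species (-1.50). Smc4, the other ATPase (0.36 ± 0.09), Ncapd2 (-0.67 ± 0.19) and Ncaph (0.79 ± 0.18) were not called.

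Neither measured spindle protein was called. Tpx2, which activates Aurka and nucleates spindle microtubules, was at 38.2 and 54.6 in mouse and 247 and 213 in gerbil. By level, the gerbil libraries were well above the mouse libraries, and the median level of all genes was also higher in gerbil. Tpx2 was called without the correction (1.67) and without SEK (1.54), but not on the corrected scale with all 4 libraries (1.06 ± 0.48). Nusap1, a microtubule-bundling protein, was at 49.6 and 76.8 in mouse and 133 and 112 in gerbil (-0.05 ± 0.48).

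Of the 3 cytokinesis genes, 2 were called higher in gerbil, against 13.3% of all genes. Anln encodes anillin, the scaffold of the contractile ring (chr9:22331214-22389206). It was the least abundant member in mouse, at 8.61 in PEK and 7.69 in SEK, and stood at 125 in E21 and 102 in E23. Its corrected difference of 2.37 ± 0.21, 5.17-fold, was the largest toward gerbil, and the call was kept under the 11 alternatives in which it was measured. Ect2, the exchange factor that activates RhoA at the cell equator (chr3:27097220-27153878), was at 24.7 and 18.9 in mouse and 130.3 and 120.4 in gerbil (1.42 ± 0.04). Its call ended with GC content also removed (0.86) and with neither correction nor rescaling (0.60). Racgap1, the partner of Kif23 in centralspindlin, was at 47.2 and 98.2 in mouse and 230.2 and 204 in gerbil, and was called only without SEK (1.73) and not with it (1.11 ± 0.55).

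**Figure D2:**
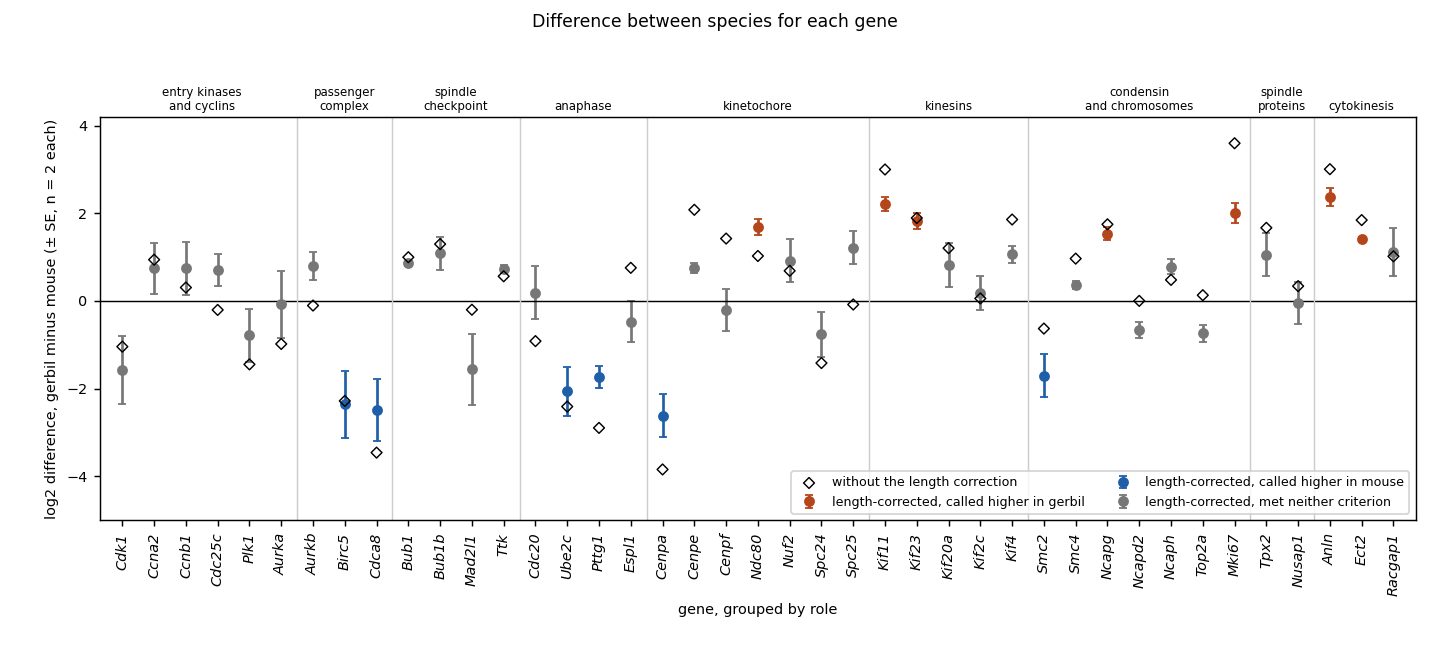
Gerbil minus mouse log2 difference (vertical axis) of each member after the length correction (filled points, ± SE, n = 2 libraries per species) and without it (open diamonds), grouped by role. The 7 genes called higher in gerbil include Kif11, Mki67 and Anln, and the 6 called higher in mouse include Birc5, Cdca8 and Cenpa.

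Transcript length moved with the species difference, among the members as among all genes. Across the 41 members, Spearman's rho between exon-union length and the uncorrected difference was 0.59, and across all 10162 genes it was 0.55. These are descriptions across genes that share the same 4 libraries. In the shortest 1017 of all genes, at a median of 1128 bases, the median uncorrected difference was -1.80, and in the longest 1017, at 8748 bases, it was 1.43. Without the correction, 10 members were called higher in gerbil (18.4% of all genes) and 5 higher in mouse (19.4%), and the median difference was 0.48. Cenpe, Cenpf, Kif4 and Tpx2 were then added to gerbil, and Ndc80 and Smc2 were no longer called. After the correction, rho was 0.16 across members and -0.02 across all genes. The members called higher in gerbil still had a median length of 4117 bases and those called higher in mouse 2237 bases.

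**Figure D3:**
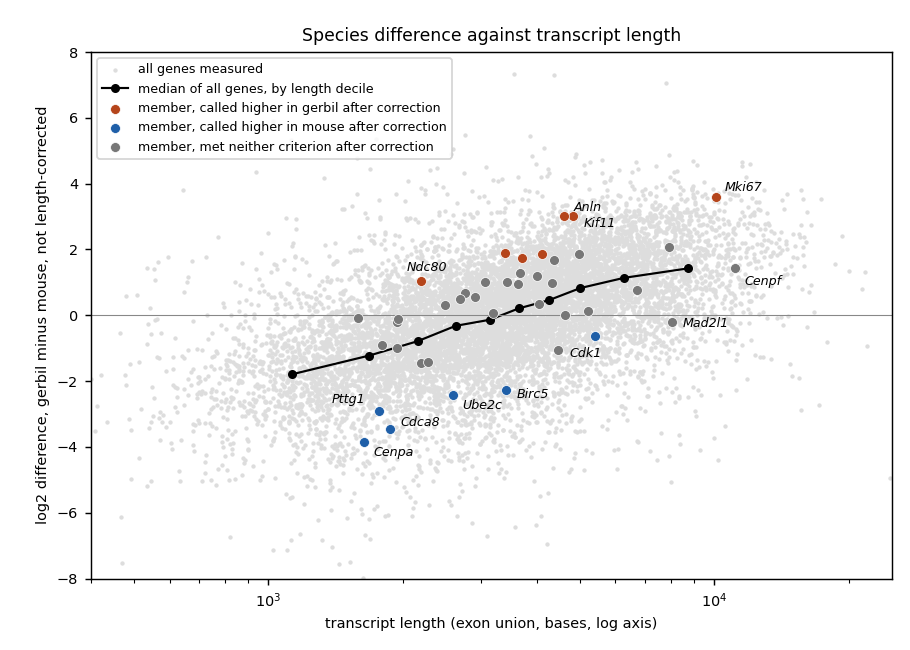
Uncorrected gerbil minus mouse log2 difference (vertical axis) against exon-union transcript length (horizontal axis, bases, log axis) for all measured genes (light points) and the 41 members (larger points, coloured by their call after correction). The black line joins medians of all genes in 10 length classes and goes from -1.80 to 1.43. Mki67, Anln and Kif11 lie above it and Cenpa, Cdca8 and Birc5 below it. The uncorrected differences are taken after subtracting a median over all genes from each library.

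Ratios taken within a library do not depend on rescaling between the tables. The pairs given here encode proteins that work together, and they were picked after the values had been seen. The ratio of Cdca8 to Aurkb levels was 1.62 in PEK and 2.21 in SEK, and 0.22 in E21 and 0.147 in E23. Both genes are of similar length (1874 and 1955 bases), and after the length correction the log2 ratio was still 0.61 and 1.16 in mouse and -2.11 and -2.68 in gerbil. Birc5 to Aurkb gave 3.21 and 4.30 in mouse and 0.838 and 0.793 in gerbil. Survivin and borealin RNA exceeded Aurkb RNA in both mouse libraries and lay below it in both gerbil libraries.

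Pairs from other complexes were also apart. Smc2 to Smc4 was 1.46 and 2.21 in mouse and 0.575 and 0.603 in gerbil, and Spc24 to Spc25 was 1.24 and 1.15 against 0.550 and 0.399. The proliferation markers Top2a and Mki67 had a ratio of 6.06 and 9.40 in mouse and of 0.576 and 0.747 in gerbil, and these genes differ in length (5221 and 10061 bases). Corrected for length, their log2 ratio was 2.31 and 2.68 in mouse and -0.42 and -0.07 in gerbil. The ratio of Ndc80 to Nuf2, which form a heterodimer, overlapped between the species, at 0.936 and 0.595 in mouse and 1.03 and 0.877 in gerbil.

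Within mouse, the members were shifted toward the SEK library. After the length correction, 39 of the 41 (95.1%) were higher in SEK than in PEK, against 48.0% of all genes, and the 2 exceptions were Ncapg (-0.07) and Ncapd2 (-0.02, SEK minus PEK). The median difference was 0.67, against -0.03 for all genes. At least 2-fold higher in SEK were 11 members (26.8%, against 7.47% of all genes), and 0 were at least 2-fold higher in PEK (8.45% of all genes). With 1 library on each side there is no replicate check and no test, and what sets SEK apart from PEK is not given.

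All 6 entry kinases and cyclins were higher in SEK, and 5 of them by at least 2-fold: Cdk1 (1.55), Aurka (1.43), Ccnb1 (1.17), Ccna2 (1.16) and Plk1 (1.09, all SEK minus PEK). The passenger genes Birc5 (1.52) and Cdca8 (1.11), the checkpoint gene Mad2l1 (1.63), the anaphase genes Cdc20 (1.13) and Ube2c (1.04) and the cytokinesis gene Racgap1 (1.10) made up the rest of the 11. On uncorrected levels, Aurka had the largest ratio of SEK to PEK, 3.23, while the ratio was 1.74 for Ccna2 and 1.85 for Mad2l1. After the 2 exceptions, the smallest differences were those of Mki67 (0.01), Ect2 (0.03) and Bub1 (0.03), whose uncorrected levels were lower in SEK than in PEK.

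Length moved with this comparison too. Without the correction 30 of 41 members were higher in SEK, against 49.1% of all genes, and 16 by at least 2-fold, against 8.52%. Spearman's rho across members between length and the uncorrected SEK minus PEK difference was -0.71, and -0.44 across all genes. The cell type markers differed between these libraries: the knot markers summed to 3314 in PEK and 1959 in SEK, the epithelial markers to 5339 and 7632, and the 6 matched muscle markers to 135 and 587. Their part in the result was not tested.

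**Figure D4:**
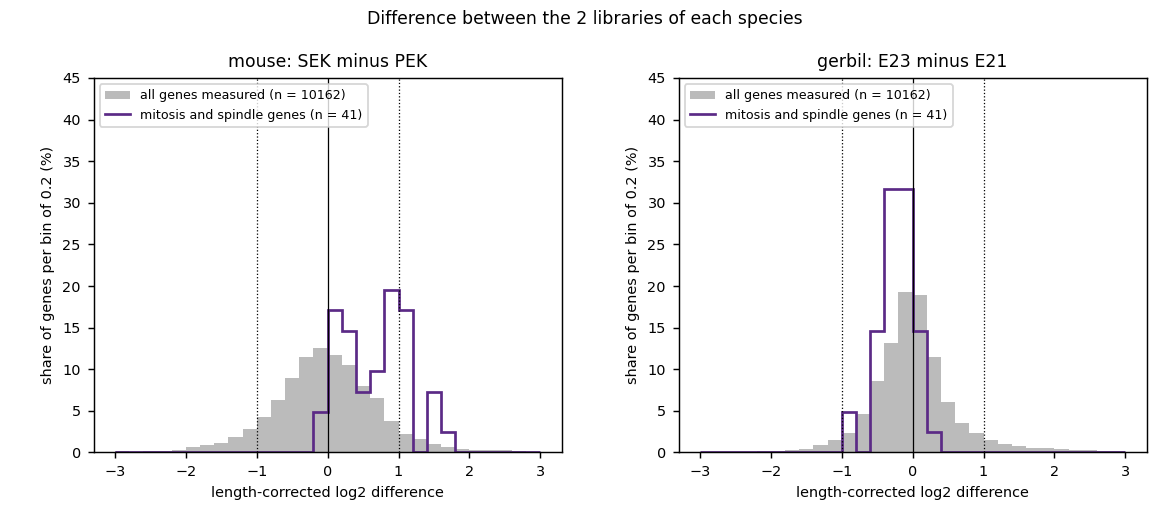
Share of genes (vertical axis, %) by length-corrected log2 difference (horizontal axis) between the libraries of mouse (left, SEK minus PEK) and of gerbil (right, E23 minus E21), for all 10162 measured genes (grey) and the 41 members (outline). Dotted lines mark 2-fold. The members' median is 0.67 in mouse and -0.21 in gerbil.

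The gerbil libraries were closer to each other. In E21, 34 of the 41 members (82.9%) were higher than in E23, against 51.5% of all genes, with a median E23 minus E21 difference of -0.21. No member was 2-fold apart in either direction, where 3.67% of all genes were at least 2-fold higher in E21 and 6.03% in E23. Cdca8 (-0.87) and Espl1 (-0.81) were the furthest toward E21 and Cenpa (0.32) the furthest toward E23. Mesenchymal markers summed to 1916 in E21 and 3477 in E23, and the 5 matched endothelial markers to 34.8 and 157, with Emcn listed at 0 in E21. Their part in this difference was not tested.

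Other genes of the same pathway were described from a wider list of mitosis regulators, kinetochore, cohesin and anaphase-promoting complex genes. The list also holds transcription regulators, among them E2f1, Rbl1, Lin52 and Nfya. Of its 91 genes, 74 were measured. Of these, 16 (21.6%) were called higher in gerbil and 5 (6.76%) higher in mouse, against 13.3% and 14.7% of all genes, with a median of 0.30. They ran from Cit, the citron kinase of cytokinesis (-1.76 ± 0.55), to Ncapg2, a subunit of the second condensin complex (2.62 ± 0.25). DNA replication genes, the neighbouring step of the cell cycle, had 44 of 54 measured, with 3 called in each direction (6.82%) and a median of 0.19. Between the mouse libraries, 48 of the 74 genes of the wider list (64.9%) and 36 of the 44 replication genes (81.8%) were higher in SEK. This compares with 48.0% of all genes, and the medians were 0.25 and 0.46. At least 2-fold higher in SEK were 6 (8.11%) and 8 (18.2%) of them, against 7.47% of all genes. The difference between these lists and the members was not tested.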

How the data were processed

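RNA was sequenced from 4 libraries, 2 per species. Per the submitters' processing notes, the tools were RSEM 1.3.1, STAR 2.7.1a and cutadapt 2.8, with no role given for each table. The mouse values are FPKM and the gerbil values TPM, both deposited by the authors in separately normalized tables of 27632 and 25745 rows. In the gerbil table, 4 other columns of per-sample values (RPKM and read counts) were left out, since columns without sample numbers were kept in a single unit per library. Mouse positions are printed as in the mouse table, and the notes name GRCm38 and mm10.

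Symbols were matched ignoring case. Values were scaled to sum to 1000000 over matched genes in every library and taken to log2(level + 1), so differences of low genes are understated. Genes needed a mean level of at least 1 and a GENCODE M21 exon-union length. This is the length of the mouse gene over all its isoforms, and it was used for the gerbil libraries too. For the length trend, each gene's departure from its 4-library mean was taken, and its medians in 40 length bins, joined linearly, were subtracted from every library. Without the length correction, the median of these departures over all genes was subtracted from each library instead. With neither correction nor rescaling, no median was subtracted, and the median difference of all genes was -1.09. The SE of a difference comes from the 2 libraries per species. The steps were tested on simulated data with the same length trend in both libraries of a species, scored only on genes of higher level. The mouse libraries here differed in their length trend, which that test does not cover.

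The members, the comparison lists and the length correction were chosen with earlier results of these data known. Every member is accounted for. All libraries are printed for members called in either direction, for members whose call the correction made or ended, and for the highest and lowest of each role, with Aurkb and Top2a added after their values were seen. Alternatives were other scales, filters, pseudocounts, bins, a GC term and leaving out each library. The median transcript length in place of the exon union was added after seeing the data. Python 3.11.15, numpy 2.4.6, pandas 2.3.3 and scipy 1.17.1 were used.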

Additional observations from a re-analysis of the deposited data

How the results depend on the processing

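With neither length correction nor rescaling, 3 members were called higher in gerbil (4.19% of all genes) and 10 higher in mouse (40.6%), the median difference was -0.72 and that of Ndc80 -0.18. That setting moved the median of all genes by -1.07. With GC content removed beside length, 4 members were called higher in gerbil (11.4% of all genes). Leaving out each library in turn gave 7 to 16 members higher in gerbil, the 16 without SEK, and 6 to 10 higher in mouse, the 10 without PEK. The cause of these moves was not tested. The calls of Birc5, Cdca8, Cenpa, Kif11 and Mki67 were kept under all 12 alternatives and that of Anln under the 11 that measured it. Between the mouse libraries, 29 to 40 members were higher in SEK over the alternatives. No paired analysis was possible because the columns carry no replicate numbers. Gerbil RPKM in place of TPM was not run. Gerbil read counts are deposited but were not used here, and mouse depth is unknown, so what depth limits was not analysed here.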

Other observations

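The 6 listed genes without a matched gerbil symbol were present in both mouse libraries. The cyclin gene Ccnb2 was at a level of 106 in PEK and 248 in SEK, and the kinesin gene Kif22 at 93.4 and 212. Both were higher in SEK, as were Prc1, which bundles the central spindle (66.4 and 81.8), Incenp, the scaffold of the passenger complex (56.3 and 67.3), and Kif15 (44.9 and 53.5). Kif20b was lower in SEK, at 13.0 in PEK and 6.95 in SEK. These levels are not length-corrected and have no replicate.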
